A study of Danio rerio with 12 samples.

Results

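The difference between zebrafish that had access to a thermal gradient and zebrafish kept at a constant temperature was measured in the brain on 12 single-colour arrays. All 12 arrays of the series entered the comparison, 6 from the gradient and 6 from constant temperature, sorted by the group in their titles and by what the methods say of each group. Adult fish gave whole brains 24 h after treatment, and RNA from 3 brains was pooled for each array, so that by the labels 9 fish stood behind each group of 3 arrays. The groups were control fish without injection (C), sham-injected fish given PBS, a saline solution, in the gradient (Sd), fish given synthetic double-stranded RNA (poly(I:C), dsRNA) at constant temperature (Ti), and fish given the same dsRNA in the gradient (Td). The injections were intraperitoneal. The labels give a dsRNA dose of 1 mg per kg and the methods a smaller one.

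The sources disagree on what was compared in 2 places, and every value below depends on it. The methods keep C out of the gradient, while the treatment label places it inside. In a table deposited for the whole series, the columns of Ti hold the values of the Td arrays and the columns of Td those of the Ti arrays, while the scanner output and the tables of the single samples hold them under their own names. The grouping of the methods and the scanner output were used, and the values under the other readings are given at the end. C was also the only group without an injection, so that Sd minus C holds the injection together with the gradient, and these cannot be told apart. Td minus Ti compares the gradient with constant temperature among fish given the same injection. The sources used here do not say whether the pools of a group shared a tank. If they did, tank and gradient cannot be told apart, and the p-values below measure the spread between pools of the same tank. Each fish chose its own temperature in the gradient, and no temperature belongs to a single array in the sources used here.

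Fish do not hold a body temperature of their own, and behavioural fever is the choice of warmer water during an infection. Cells at a higher temperature make more of the heat shock proteins, chaperones that hold or refold other proteins. Double-stranded RNA is a sign of viral replication, and it is known to start the interferon response, in which STAT and IRF transcription factors switch on antiviral genes. The brain also holds microglia, its resident macrophages, vessels, and the meninges, whose fibroblasts make collagen.

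Levels are given as scaled log2 signal, the log2 processed signal minus the 75th percentile of the same array, so that 0 is the level of that percentile. The percentile was at an intensity of 34.6 on array Ti3 and between 99.1 and 541 on the other 11 arrays. Features well above background numbered 15982 ± 3994 (SD, n = 6) on the gradient arrays and 13856 ± 4990 (SD, n = 6) on the constant-temperature arrays. The difference of 2126 was within the spread of the arrays (exact permutation test within dsRNA status, two-sided, p = 0.465), and without Ti3 it was 366 (exact permutation test, p = 0.86). Every one of 3 slides carried 1 array per group. A group had the same position on every slide, so position and group cannot be told apart. In total 16136 transcripts were tested, of which 7717 had a gene symbol.

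The question of the main effect was which transcripts differed with the gradient over both kinds of fish. It was the mean of Td minus Ti and Sd minus C, and a positive value means a higher level in the gradient. Genes of the extracellular matrix such as col1a1b and fmoda and the heat shock gene hspb1 were higher in the gradient. The cell cycle gene cdk1 and the complement genes c1qa and c1qb were higher too, mostly through Sd minus C, which also holds the injection. In Td minus Ti, c1qa differed by 0.12 ± 0.30 and c1qb by 0.33 ± 0.28 (SE). Few transcripts were lower. At an adjusted p under 0.05 (limma, Benjamini-Hochberg), 62 transcripts were called, 0.384% of those tested. Of these, 56 were higher (0.347%) and 6 lower (0.0372%), and 35 had a symbol, 33 of them higher. At an unadjusted p under 0.01, used below to describe gene lists, 880 transcripts passed (5.45%), with 707 higher (4.38%) and 173 lower (1.07%). The median difference of all transcripts was 0.10 on the log2 scale.

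The number of calls depended on single arrays and on the scaling. It was 12 without Ti3, 11 without Sd3 and 0 to 4 without any one of the other 10 arrays, and 0 with the 50th percentile in place of the 75th. With the slide as a block it was 128, of which 59 were among the 62. Each of the 62 called transcripts kept its direction under every other scaling, filter and left-out array in which it was tested, and 16 of them were well above background on all 12 arrays.

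Both contrasts behind the main effect came from the same fit and shared no array. The median difference of all transcripts was 0.17 in Td minus Ti and 0.07 in Sd minus C. Td minus Ti alone gave 1 call at an adjusted p under 0.05, ebi3 (0.0062% of transcripts), and Sd minus C gave 600 (3.72%). At an unadjusted p under 0.01, Td minus Ti gave 157 (0.973%) and Sd minus C 1545 (9.57%), of which 965 were higher (5.98%) and 580 lower (3.59%). Of the 62 transcripts called in the main effect, 61 had the same sign in both contrasts, and 59 had the larger size in Sd minus C. Their median size was 0.78 in Td minus Ti and 2.34 in Sd minus C, on the log2 scale. The main effect therefore held 2 patterns, which were described by rules chosen after the values had been seen. In the first, both Sd lay above C and Td above Ti with no overlap of arrays, which held for 34 of the 56 higher calls and for 311 of all transcripts (1.93%). The reverse order held for 26 of all transcripts (0.161%). In the second, the 3 C arrays lay below all of the 9 other arrays, which held for 37 of the calls and for 705 of all transcripts (4.37%). With the 50th percentile in place of the 75th the count over all transcripts was 205 for the first pattern and 42 for the second. C lay above the 9 others in 128 transcripts (0.793%). Both patterns held for 19 calls.

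**Figure D1:**
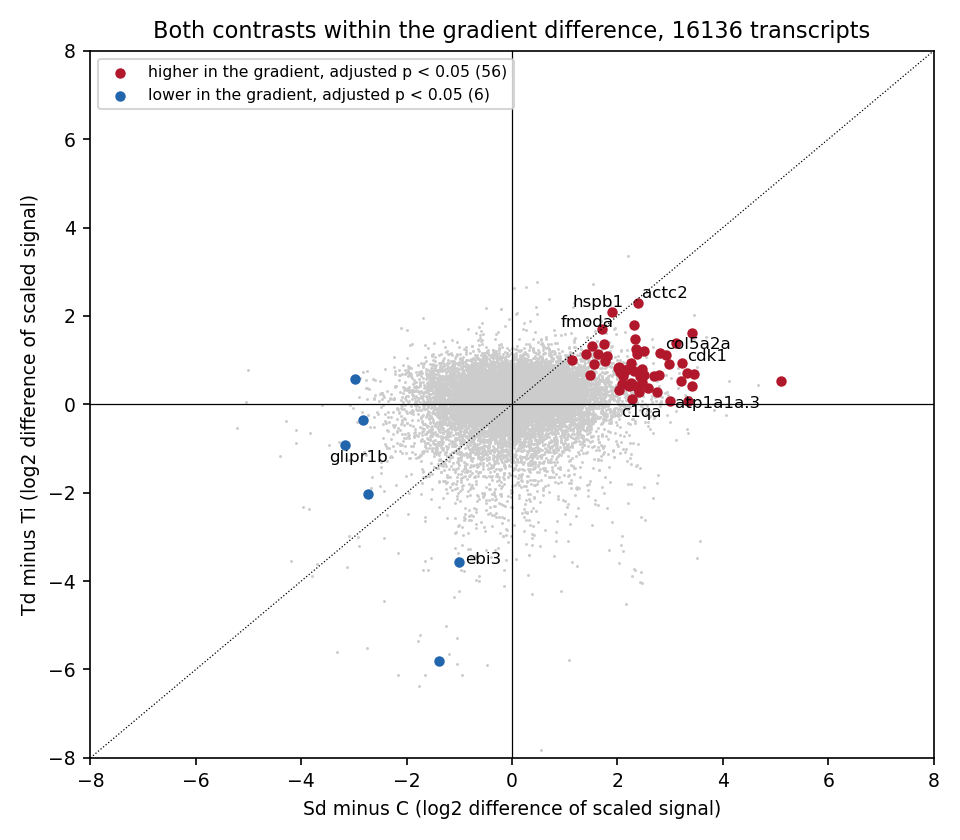
Difference in each of the 16136 tested transcripts between sham-injected fish in the gradient and controls (Sd minus C, horizontal axis) and between dsRNA-injected fish in the gradient and at constant temperature (Td minus Ti, vertical axis), both as log2 differences of scaled signal. Red points are the 56 transcripts higher in the gradient and blue points the 6 lower at an adjusted p under 0.05, grey points are the rest, and the dotted line marks equal values: hspb1, fmoda and actc2 lie close to it, while atp1a1a.3 and c1qa lie near 0 on the vertical axis.

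Genes of the extracellular matrix were among those that followed the first pattern. The type I collagen gene col1a1b had scaled log2 signals of 5.08, 4.92 and 4.84 in C and of 6.98, 6.94 and 6.14 in Sd. In the dsRNA-injected fish it had 5.03, 4.68 and 4.85 in Ti and 6.65, 6.02 and 5.97 in Td. All 6 gradient arrays lay above all 6 constant-temperature arrays, which held for 160 of all transcripts (0.992%). The main effect was 1.55 ± 0.22 (SE; limma, adjusted p = 0.0398), from 1.36 in Td minus Ti and 1.74 in Sd minus C. The interaction, which is Td minus Ti less Sd minus C, was -0.38 ± 0.45 (SE).

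Fibromodulin (fmoda), a small proteoglycan that binds collagen fibrils, had 0.03, -0.32 and -0.90 in C and 1.05, 1.91 and 0.98 in Sd. Its levels were -0.36, -0.07 and -0.72 in Ti and 0.68, 1.77 and 1.48 in Td. The groups did not overlap between gradient and constant temperature. Its main effect was 1.70 ± 0.28 (SE; limma, adjusted p = 0.0398), with 1.69 in Td minus Ti and 1.71 in Sd minus C. Other proteoglycans of the same family were also higher. Osteoglycin (ogna) differed by 1.41 ± 0.23 and biglycan (bgna) by 1.54 ± 0.23 (SE; limma, adjusted p = 0.0398 for both). Lumican (lum) had 1.85, 0.36 and 0.92 in C, 3.70, 2.74 and 2.53 in Sd, 1.53, 1.25 and 0.30 in Ti, and 3.15, 1.91 and 3.22 in Td. No gradient array of lum lay below a constant-temperature array, and its main effect of 1.84 ± 0.37 (SE) did not pass the threshold (limma, adjusted p = 0.0664).

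The list of extracellular matrix genes was drawn up after the called genes had been seen, so its counts are a description and no support. Of its 72 genes on the array 52 were tested, and 12 were higher at an adjusted p under 0.05 and none lower. At an unadjusted p under 0.01, 23 were higher (44.2%, against 4.38% of all transcripts) and 0 lower. Among the 12 called were the type V collagen gene col5a2a (1.99 ± 0.26 SE), sparc, a collagen-binding glycoprotein (1.38 ± 0.25 SE), and the metalloproteinase gene mmp2, which cuts matrix proteins (1.37 ± 0.23 SE). The others were serpinf1, htra1a, dpt, pcolcea, mmp14b and the genes given above. Of the type I collagen genes, col1a1a differed by 1.36 and col1a2 by 1.19 without passing the threshold (limma, adjusted p = 0.0837 and 0.105). The median main effect of the 52 genes was 0.92, from 0.69 in Td minus Ti and 1.42 in Sd minus C. Relative to all transcripts it stayed positive under every alternative and left-out array that was run. The mean level of the list was between 0.40 and 0.60 in C, 1.3 and 1.84 in Sd, 0.53 and 0.80 in Ti, and 1.14 and 1.3 in Td, so that every gradient array lay above every constant-temperature array. In 20 of the 52 genes both Sd lay apart above C and Td above Ti (against 1.93% of all transcripts).

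Of the heat shock genes, hspb1 was higher in the gradient and by similar amounts in both contrasts. The gene of the small chaperone Hspb1 had scaled log2 signals of 4.81, 5.36 and 5.47 in C and 7.19, 6.60 and 7.54 in Sd. In the dsRNA-injected fish it had 3.63, 3.36 and 2.50 in Ti and 4.33, 5.74 and 5.70 in Td. Sd lay wholly above C and Td wholly above Ti, while C and Td overlapped and Ti was lowest. The main effect was 1.99 ± 0.32 (SE; limma, adjusted p = 0.0398), with 2.09 in Td minus Ti and 1.89 in Sd minus C. The interaction was 0.20 ± 0.65 (SE; limma, unadjusted p = 0.765).

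The Hsp70 gene hspa1b had the largest difference of the heat shock list. Its levels were 0.39, 2.18 and 2.09 in C, 3.91, 2.40 and 4.92 in Sd, -4.87, -3.37 and -1.29 in Ti, and -0.54, 0.04 and 1.05 in Td. Sd lay above C and Td above Ti on every array. It was not well above background on any Ti array, and Td was at least 2.23-fold higher than Ti, a bound taken against the lowest signal that counted as well above background on each array. The main effect was 2.78 ± 0.64 (SE; limma, adjusted p = 0.0896). The Hsp90 gene hsp90aa1.1 differed by 1.79 ± 0.53 (SE; limma, adjusted p = 0.149), with 1.89 in Td minus Ti and 1.69 in Sd minus C.

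The co-chaperone gene fkbp4, whose product works with Hsp90, had 5.27, 4.48 and 4.89 in C, 5.89, 5.31 and 5.57 in Sd, 4.37, 4.12 and 4.25 in Ti, and 5.15, 5.12 and 5.26 in Td. It was well above background on all 12 arrays, and its difference of 0.82 ± 0.20 (SE) did not pass the threshold (limma, adjusted p = 0.105). The mitochondrial chaperonin gene hspe1 differed by 0.70 ± 0.19 (SE), st13, which encodes a partner of Hsp70, by 0.90 ± 0.24 (SE), and the collagen chaperone gene serpinh1b by 2.73 ± 0.73 (SE), none past the threshold. The largest difference the other way was in dnaja1, a gene of the Hsp40 family, at -1.18. It was not well above background on any Sd array, where it was at least 1.44-fold lower than in C.

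Of the 58 heat shock genes on the array 51 were tested, and 1 of these, hspb1, was called. At an unadjusted p under 0.01, 9 were higher (against 4.38% of all transcripts) and 1 lower (against 1.07%). The median main effect of the list was 0.22, with 0.31 in Td minus Ti and 0.20 in Sd minus C. Over all transcripts these medians were 0.10, 0.17 and 0.07. Relative to all transcripts the median was 0.12, and it became -0.07 with quantile normalization and -0.05 with normexp background correction. In 5 of the 51 genes (against 1.93% of all transcripts) both Sd lay apart above C and Td above Ti. They were hspb1, hspa1b, fkbp4, hspe1 and serpinh1b. The count of 5 became 1 with the 50th percentile, 3 with quantile normalization and 0 with normexp. The mean level of the list was between 1.51 and 1.85 in C and between 2.01 and 2.23 in Sd. It was between 1.03 and 1.41 in Ti and between 1.51 and 1.65 in Td.

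**Figure D2:**
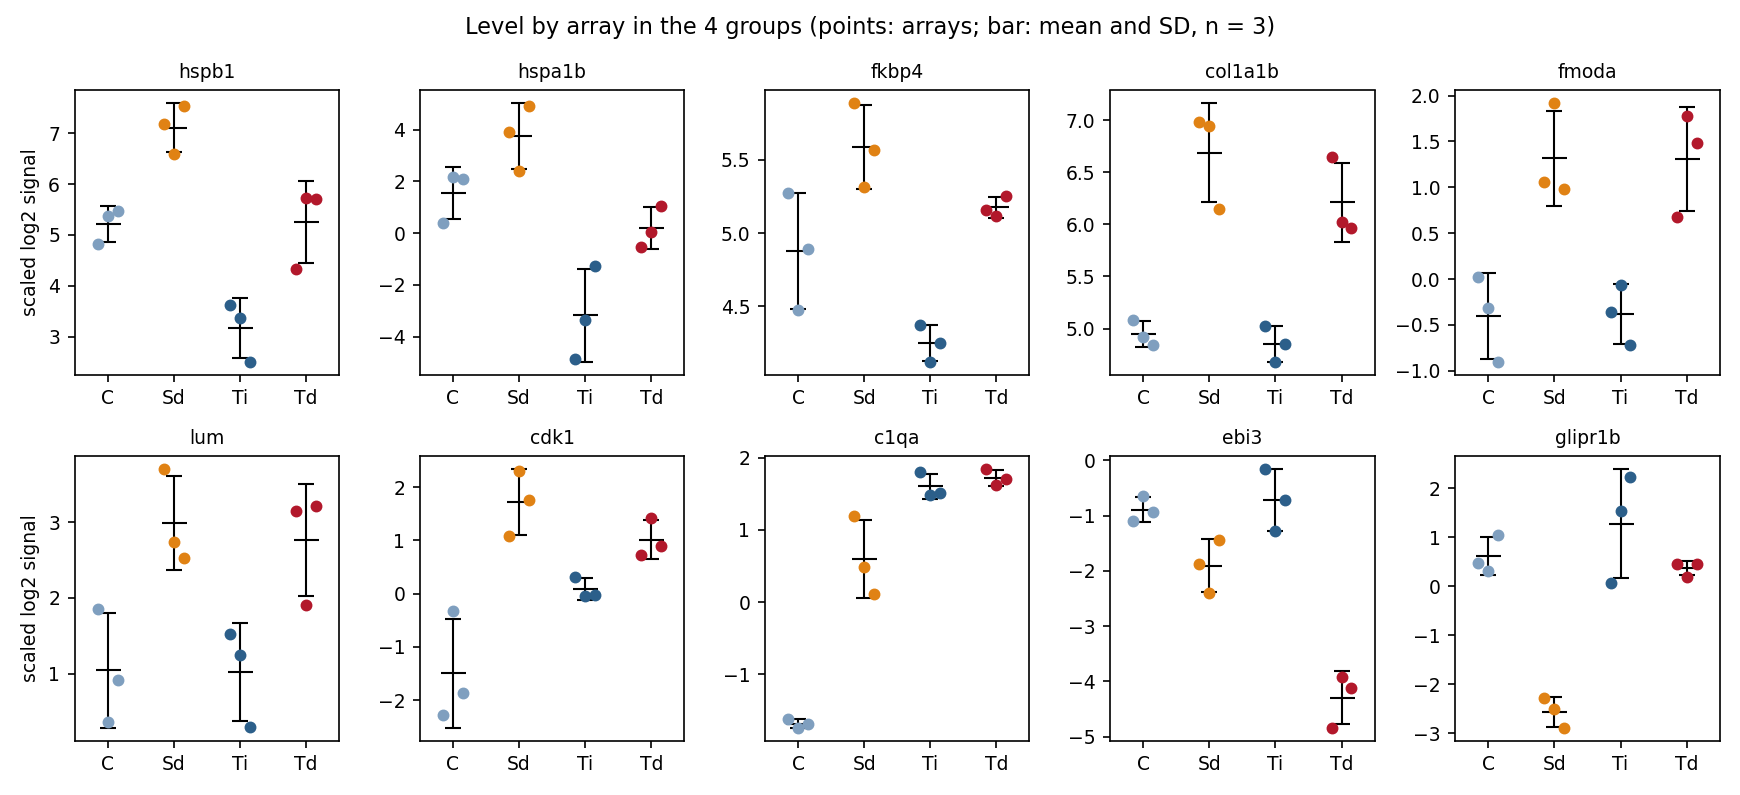
Scaled log2 signal of 10 genes (vertical axes, each with its own range) on the 3 arrays of each group (points), with the mean and SD as bars. In hspb1, hspa1b, fkbp4, col1a1b, fmoda and lum, Sd lies above C and Td above Ti on every array. In cdk1 and c1qa the C arrays lie below all others, ebi3 is lowest in Td, and glipr1b is lowest in Sd.

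Among cell cycle genes, cdk1 was higher in the gradient, and its level was lowest in C. The kinase gene cdk1, which drives cells into mitosis, had -2.27, -0.34 and -1.87 in C and 1.09, 2.31 and 1.76 in Sd. It had 0.32, -0.04 and -0.02 in Ti and 0.73, 1.42 and 0.88 in Td. The 6 gradient arrays lay above the 6 constant-temperature arrays, and C lay below Ti. On C1 and C3 the level of cdk1 was below the lowest signal that counted as well above background, -0.33 and -1.35. The size of its Sd minus C is therefore uncertain. The main effect was 2.07 ± 0.35 (SE; limma, adjusted p = 0.0398), from 0.93 ± 0.49 in Td minus Ti and 3.21 ± 0.49 in Sd minus C (SE). Nuclear import factor gene kpna2 differed by 1.84 ± 0.28 (SE; limma, adjusted p = 0.0398). Of the 37 cell cycle genes tested, of 43 on the array, 1 was called. In all, 14 were higher at an unadjusted p under 0.01 (37.8%, against 4.38% of all transcripts) and 0 lower. The replication gene mcm3 showed the extreme form of the pattern, with 0.00 ± 0.37 in Td minus Ti and 2.52 ± 0.37 in Sd minus C (SE). The median of the list was 0.35 in Td minus Ti and 1.64 in Sd minus C, and relative to all transcripts its main effect was 0.87, and 0.19 by the labels. The 3 C arrays lay below the 9 others in 12 of the 37 genes (against 4.37% of all transcripts). They did so in none of the genes with the 50th percentile in place of the 75th.

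The complement genes c1qa and c1qb were higher in the gradient, with C below all injected fish. The gene c1qa encodes a chain of the first complement component, which microglia make in the brain. Its levels were -1.62, -1.73 and -1.68 in C, 1.19, 0.49 and 0.12 in Sd, 1.81, 1.48 and 1.51 in Ti, and 1.84, 1.62 and 1.70 in Td. C stood apart and below, and Sd lay below both dsRNA groups. On only 1 C array was c1qa well above background, so the size of its Sd minus C is uncertain. The main effect was 1.2 ± 0.21 (SE; limma, adjusted p = 0.0464), with 0.12 ± 0.30 in Td minus Ti and 2.28 ± 0.30 in Sd minus C (SE). Its partner c1qb differed by 1.18 ± 0.20 (SE; limma, adjusted p = 0.0402), with 0.33 in Td minus Ti and 2.03 in Sd minus C. The gene cfbl, named for its likeness to complement factor B, differed by 1.72 ± 0.31 (SE; limma, adjusted p = 0.0464), with 0.66 in Td minus Ti and 2.79 in Sd minus C. It too was well above background on only 1 C array. The genes c1qa, c1qb and cfbl were the calls among the 8 tested genes of the complement list, which was drawn up after the calls had been seen. That list also holds c1qbp and cfdp1, which do not encode complement components.

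Of the 24 leukocyte and microglia markers on the array 21 were tested. Of these, 14 were higher at an unadjusted p under 0.01 (66.7%, against 4.38% of all transcripts) and 0 lower, and c1qa and c1qb were the calls. The leukocyte actin regulator coro1a differed by 1.00 ± 0.23 and the macrophage gene mpeg1.1 by 0.67 ± 0.19 (SE). Both were near 0 in Td minus Ti, at -0.04 and 0.08. Over the 21 markers the median was 0.22 in Td minus Ti, where 19 were above 0, and 1.70 in Sd minus C. Over all transcripts these medians were 0.17 and 0.07, so that most transcripts were above 0 in each contrast taken alone. The mean level of the markers was between 0.66 and 0.68 in C. It was between 2.17 and 2.42 in Sd, 1.59 and 2.43 in Ti, and 2.23 and 2.63 in Td. In these bulk samples more cells of a type and more RNA per cell cannot be told apart. C stood below the 9 other arrays in 12 of the 21 markers (against 4.37% of all transcripts). With the 50th percentile it did so in 2 (against 42 of all 16136 transcripts). The markers apart and higher in both contrasts were 1 (against 1.93% of all transcripts), and 5 with the 50th percentile (against 205 of all 16136). Relative to all transcripts the median main effect of the markers was 1.02, and 0.06 by the labels, which leave only Td minus Ti.

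Among inflammatory genes, ccl38a.5 and caspb were called as higher in the main effect. The chemokine gene ccl38a.5 had -1.18, -0.04 and -0.50 in C, 2.09, 2.86 and 2.29 in Sd, 1.87, 2.2 and 0.66 in Ti, and 1.82, 2.90 and 2.74 in Td. Its C arrays lay below all others, and its main effect was 1.95 ± 0.34 (SE; limma, adjusted p = 0.0435). Most of it came from Sd minus C, at 2.99 ± 0.47, with 0.91 ± 0.47 in Td minus Ti (SE). The caspase gene caspb differed by 1.63 ± 0.28 (SE; limma, adjusted p = 0.0402). Prostaglandin E2 is a fever signal in mammals, made by cyclooxygenase and prostaglandin E synthase. The cyclooxygenase gene ptgs2a differed by 0.94 ± 0.24 (SE; limma, adjusted p = 0.109), with 0.72 in Td minus Ti and 1.17 in Sd minus C. The prostaglandin E synthase gene ptges differed by 0.68 ± 0.40 (SE; limma, adjusted p = 0.41). Of the 22 tested of 35 genes for inflammation and prostaglandins, 5 were higher (22.7%, against 4.38% of all transcripts) and 1 lower (against 1.07%) at an unadjusted p under 0.01, and il1b and tnfa were not among those tested.

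Several of the genes with the smallest p belonged to no list. The secreted Wnt inhibitor sfrp1b had -1.54, -1.58 and -1.22 in C, 1.70, 1.26 and 0.96 in Sd, 0.45, 0.56 and 0.15 in Ti, and 0.54, 0.92 and 0.54 in Td. Its main effect was 1.51 ± 0.20 (SE; limma, adjusted p = 0.0398), of which Td minus Ti held 0.27 ± 0.29 and Sd minus C 2.75 ± 0.29 (SE). A second secreted Wnt inhibitor, wif1, differed by 1.36 ± 0.22 and the BMP ligand gene bmp3 by 1.38 ± 0.22 (SE; limma, adjusted p = 0.0398 for both). The sodium pump gene atp1a1a.3 differed by 1.53 ± 0.25 (SE; limma, adjusted p = 0.0398), with 0.08 in Td minus Ti and 2.99 in Sd minus C. The muscle actin gene actc2 had equal differences instead, 2.30 in Td minus Ti and 2.39 in Sd minus C, with a main effect of 2.34 ± 0.41 (SE; limma, adjusted p = 0.0457).

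Markers of other tissues that a brain dissection can carry were set beside these results. Of 25 neuronal markers on the array 21 were tested, with 0 past an unadjusted p under 0.01 in the main effect and a median of -0.09. That median combined -0.51 in Sd minus C, where 5 of 21 were above 0, with 0.35 in Td minus Ti, where 18 were. Over all transcripts the medians of these contrasts were 0.07 and 0.17, so that most transcripts were above 0 in each contrast taken alone. The neuronal RNA-binding protein gene elavl3 was lower in Sd than in C, with a difference of -1.75 ± 0.42 (SE). It was the only marker of neurons called in that contrast. All of its C and Sd signals were too dim to count as well above background, so the size of this difference is uncertain. The 19 tested glial markers gave 0 past the threshold in the main effect and a median of 0.01, from -0.48 in Sd minus C and 0.29 in Td minus Ti. In Sd minus C the medians of neuronal and glial markers were thus below 0 while those of leukocyte, cell cycle and matrix genes were above it. Skin markers had 5 of 25 higher at an unadjusted p under 0.01 (20%, against 4.38% of all transcripts) and 0 lower. They were the collagen genes col1a1a and col1a2, the epithelial claudin gene cldni (1.21 ± 0.23 SE), agr2 and krt15. The gene agr2 differed by 1.16 ± 0.25 and the keratin gene krt15 by 1.33 ± 0.40 (SE). The mean level of the skin markers was between 4.42 and 5.01 in Sd, 3.77 and 4.17 in Td, 3.40 and 4.07 in C, and 3.63 and 3.86 in Ti. Another keratin gene, krt4, differed by 0.44 ± 0.21 (SE; limma, adjusted p = 0.337). Of 10 tested erythrocyte markers, hemgn (1.15 ± 0.26 SE) and gata1a (0.92 ± 0.27 SE), both for red cell nuclear factors, passed an unadjusted p under 0.01. Both were higher, which is 20% of the list, against 4.38% of all transcripts. The haemoglobin genes hbaa2 and hbba2 differed by 0.17 and -0.19. Of 27 tested muscle markers, 1 was higher at that threshold (3.7%, against 4.38% of all transcripts). The part of neurons, glia, skin, blood, muscle and leukocytes in the results above was not tested.

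**Figure D3:**
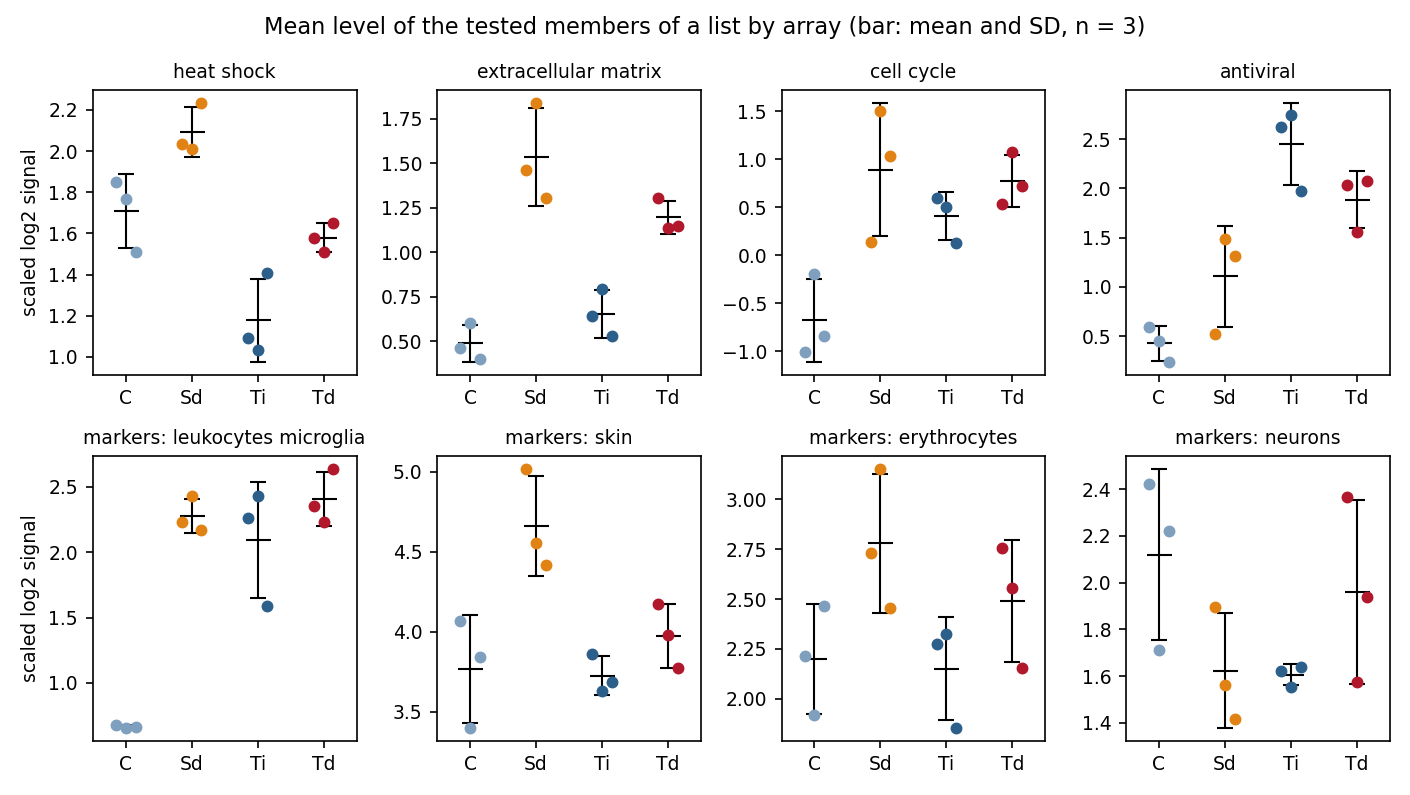
Mean scaled log2 signal over the tested members of 8 gene lists (vertical axes, each with its own range) on the 3 arrays of each group (points), with the mean and SD as bars. The 6 gradient arrays lie above the 6 constant-temperature arrays for the extracellular matrix, Sd lies above C and Td above Ti on every array for heat shock, Td overlaps Ti for skin markers, the 3 C arrays lie at 0.66 to 0.68 for leukocyte and microglia markers below all others, and the antiviral list is highest in Ti.

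Few transcripts were lower in the gradient, and 3 of the 6 called were well above background on at most 1 gradient array. The gene ebi3, which encodes a subunit of the cytokines interleukin 27 and interleukin 35 in mammals, had -1.10, -0.65 and -0.93 in C and -1.88, -2.39 and -1.44 in Sd. It had -0.16, -1.29 and -0.72 in Ti and -4.84, -3.93 and -4.12 in Td. All 6 gradient arrays lay below all 6 constant-temperature arrays, which held for 3 of all transcripts (0.0186%). The main effect was -2.29 ± 0.27 (SE; limma, adjusted p = 0.0398). It was well above background on 1 of 6 gradient arrays and 4 of 6 constant-temperature arrays, and on no Td array. In Td it was at least 3.35-fold lower than the mean of Ti, where 2 arrays were well above background.

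The gene glipr1b had 0.47, 0.31 and 1.05 in C, -2.28, -2.50 and -2.89 in Sd, 0.07, 1.54 and 2.24 in Ti, and 0.45, 0.20 and 0.46 in Td. Only Sd stood apart, where it was not well above background and at least 2.92-fold lower than in C. The main effect was -2.04 ± 0.34 (SE; limma, adjusted p = 0.0398), from -0.91 in Td minus Ti and -3.17 in Sd minus C. Complement factor B (cfb) was not well above background on any gradient array and was so on 3 constant-temperature arrays, with 2.67 and 2.31 on Ti1 and Ti3 and -2.21 on Ti2. The bound for cfb was 2.60-fold lower in the gradient than at constant temperature. It is uncertain, because the mean at constant temperature included arrays not well above background. The main effect of cfb did not pass the threshold (limma, adjusted p = 0.0932). The retinol transporter-like gene stra6l differed by -2.60 ± 0.54 and faima, which encodes an inhibitor of apoptosis, by -2.15 ± 0.48 (SE). The fat synthesis gene dgat1b differed by -1.27 ± 0.30 (SE), and all 3 had adjusted p above the threshold. On no Sd array was stra6l well above background, and it was at least 1.80-fold lower there than in C. For faima this held on the Td arrays, with a bound of 2.45-fold lower than in Ti. That bound is uncertain, because faima was well above background on only 1 Ti array and the Ti mean included the dimmer signals. Of the 173 transcripts lower at an unadjusted p under 0.01, 53 were well above background on at most 1 gradient array.

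The interaction asked whether the difference with the gradient was itself different in dsRNA-injected fish. No transcript was called at an adjusted p under 0.05 by limma, 774 passed an unadjusted p under 0.01 (4.8%) and 2282 passed an unadjusted p under 0.05. A fit with array weights called 1101, and an exchange of the dsRNA groups turned the question into another one, as given below. Of the 774 transcripts, 654 (84.5%) had opposite signs in Td minus Ti and Sd minus C, against 45% of all transcripts, a property that the contrast itself favours.

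In the transcripts with the most positive interaction, Sd was low. The adaptor gene gipc1 had 0.81, 0.77 and 1.65 in C, -0.75, 0.06 and -0.53 in Sd, -0.22, -0.14 and -0.40 in Ti, and 0.60, 1.57 and 1.25 in Td. C and Td lay above Sd and Ti on every array. Its interaction was 2.88 ± 0.51 (SE; limma, adjusted p = 0.132), from 1.39 in Td minus Ti and -1.49 in Sd minus C. The gene nbas, for a protein of Golgi-to-ER transport, had 2.09, 1.46 and 2.52 in C, -0.28, 0.26 and 0.19 in Sd, 1.72, 1.72 and 1.75 in Ti, and 2.06, 1.82 and 1.87 in Td. Only Sd stood apart in nbas, and its interaction was 2.15 ± 0.44 (SE; limma, adjusted p = 0.132). The ubiquitin ligase gene rnf146 (2.80 ± 0.52 SE) and the signalling scaffold gene ksr2 (2.34 ± 0.47 SE) had the same adjusted p. So did kctd8, for a subunit of GABA-B receptors (2.16 ± 0.40 SE), and the transcription factor gene klf12b (2.55 ± 0.52 SE). On no Sd array were ksr2, kctd8 and klf12b well above background, so the sizes of their interactions are uncertain. Sd was at least 1.41-fold lower than C in ksr2 and 1.94-fold in kctd8, and klf12b had no such bound. In C, ksr2 was well above background on 2 arrays.

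In the most negative interactions C was low. The gene agr2, for a disulphide isomerase of secretory cells, had 0.72, 0.32 and 0.80 in C, 2.87, 3.60 and 3.19 in Sd, 2.35, 2.48 and 1.92 in Ti, and 1.3, 2.41 and 2.16 in Td. Its interaction was -2.90 ± 0.50 (SE; limma, adjusted p = 0.132). The interferon-induced GTPase gene mxa had -2.46, -2.71 and -3.20 in C, -1.70, 0.06 and -0.16 in Sd, 2.26, 2.62 and 1.75 in Ti, and 0.90, 0.69 and 1.16 in Td. All 4 groups were in separate ranges, with Ti highest and C lowest, and the interaction was -3.48 ± 0.64 (SE; limma, adjusted p = 0.132). On no C array and on only 2 Sd arrays was mxa well above background, so the size of its interaction is uncertain. For lgals3bp.3, a galectin-binding protein gene, the order of the groups was the same as in mxa. Its interaction was -3.18 ± 0.61 (SE; limma, adjusted p = 0.132).

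**Figure D4:**
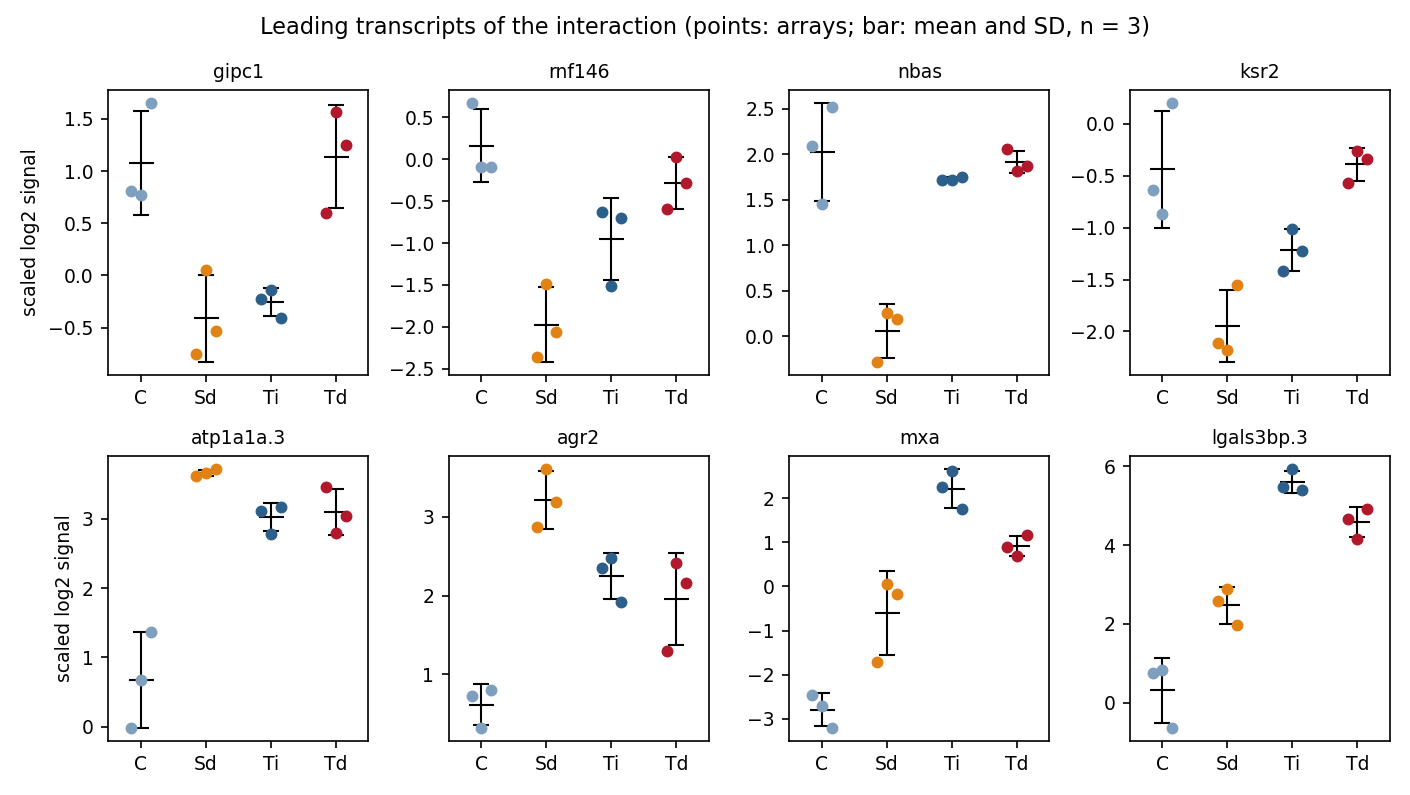
Scaled log2 signal (vertical axes, each with its own range) of 8 of the 12 genes that lead the interaction, on the 3 arrays of each group (points), with the mean and SD as bars. In gipc1, rnf146, nbas and ksr2 Sd minus C is between -2.14 and -1.49, and in atp1a1a.3, agr2, mxa and lgals3bp.3 the C arrays lie below all others.

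In the antiviral list the medians of both contrasts had opposite signs. Of the 52 on the array 43 were tested, and none was called in either direction in the main effect or the interaction. The interaction was negative at an unadjusted p under 0.01 in 9 (against 2.05% of all transcripts) and positive in 0. The median of the list was -0.37 in Td minus Ti and 0.59 in Sd minus C, which left a main effect of 0.08. The transcription factor gene irf7, a driver of interferon genes, had -0.43, -1.36 and -1.3 in C, -0.81, 1.87 and 1.13 in Sd, 4.51, 5.21 and 3.89 in Ti, and 2.64, 2.75 and 3.25 in Td. Its differences were -1.66 ± 0.61 in Td minus Ti and 1.76 ± 0.61 in Sd minus C (SE), and its main effect was 0.05 ± 0.43 (SE). The interferon signalling gene stat1b had 0.20, 0.58 and 2.00 in Ti and -0.57, -1.59 and -1.23 in Td, a difference of -2.06 ± 0.55, and stat1a differed by -0.73 ± 0.43 (SE). The antiviral gene rsad2 had 1.81, 1.65 and 1.67 in Ti and -0.18, -2.37 and -1.12 in Td, a difference of -2.93 ± 0.57 (SE). Neither irf7, stat1a, stat1b nor rsad2 passed an adjusted p under 0.05 in any contrast of the gradient. Ti was the highest group in mean level of the list, between 1.98 and 2.75, with Td between 1.56 and 2.07, Sd between 0.52 and 1.49, and C between 0.24 and 0.59.

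Of the cholinergic and somatostatin genes that the study names, acetylcholinesterase and the somatostatin transcripts below did not pass a test of the main effect. No value is given here for the alpha7 nicotinic receptor gene, which the study also names. Acetylcholinesterase (ache) had 1.45, 1.26 and 2.26 in C, 0.68, 0.72 and 0.44 in Sd, 0.66, 1.11 and 2.1 in Ti, and 1.52, 1.72 and 1.98 in Td. Its main effect was -0.30 ± 0.28 (SE). The somatostatin transcripts sst1.1 and sst6.1 differed by -0.12 ± 0.22 and 0.10 ± 0.30 (SE).

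In the other lists for temperature, metabolism and hormones no gene was called in the main effect. Ribosomal protein genes, with all 80 on the array tested, gave 0 past an unadjusted p under 0.01 in either direction and a median of -0.08. Respiratory chain genes gave 1 of 77 higher (1.3%, against 4.38% of all transcripts) and a median of 0.17. Circadian clock genes gave 0 higher and 1 lower of 29, clockb. The list for TRP channels and thermosensing gave 0 of 9. Its tested members include stim1a, orai1b and trpc4apa, which do not encode TRP channels, and trpv1, trpv4 and trpa1b were not tested. Thyroid genes gave 1 lower of 13. Over all transcripts 1.07% were lower. In the cold-inducible and splicing factor list, 3 of 21 were higher at an unadjusted p under 0.01 (14.3%, against 4.38% of all transcripts), and rbmx, an RNA-binding protein gene, had 2.79, 2.66 and 2.14 in C, 3.63, 3.75 and 3.29 in Sd, 2.06, 2.45 and 1.95 in Ti, and 2.95, 3.14 and 3.53 in Td. It differed by 1.04 ± 0.21 (SE; limma, adjusted p = 0.0674), with 1.06 in Td minus Ti and 1.02 in Sd minus C. The cold-inducible RNA-binding protein gene cirbpb differed by 0.44 ± 0.40 (SE).

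**Figure D5:**
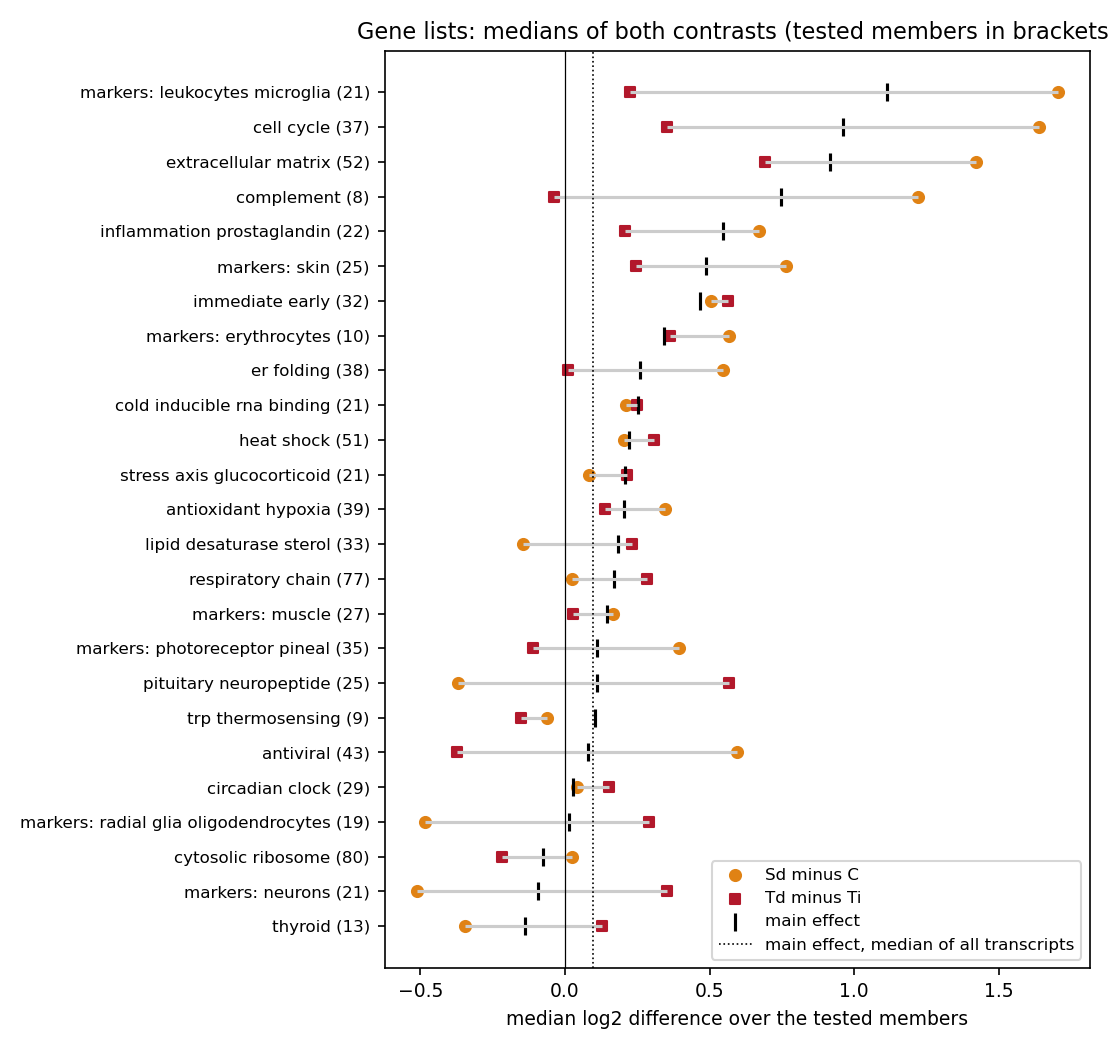
Median log2 difference over the tested members of each gene list (numbers in brackets) for Sd minus C (circles), Td minus Ti (squares) and the main effect (bars), with the median main effect of all transcripts, 0.10, as a dotted line. Leukocyte markers, cell cycle genes and matrix genes have the highest main effects, at 1.11, 0.96 and 0.92, and the circles lie far to the right of the squares for leukocyte markers and cell cycle genes.

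Under the other readings of the groups the main effect changed its meaning. If C was in the gradient, as the labels say, only Td minus Ti compares gradient with constant temperature, no interaction can be formed, and 1 transcript was called, ebi3, with 67 higher (0.415%) and 90 lower (0.558%) at an unadjusted p under 0.01. Under that reading 41 of 52 matrix genes and 41 of 51 heat shock genes were above 0, as were most of all transcripts. None of these genes was called. The medians of these lists were 0.69 and 0.31 in Td minus Ti, against 0.17 over all transcripts. The difference was 1.36 ± 0.32 for col1a1b, 1.69 ± 0.40 for fmoda and 2.09 ± 0.46 for hspb1 (SE). It was 0.93 ± 0.49 for cdk1 and 0.12 ± 0.30 for c1qa (SE). If Ti and Td were exchanged, as in the table for the series, the main effect became -0.5 times the interaction and the interaction -2 times the main effect. No transcript was then called in the main effect and 62 in the interaction, 6 positive and 56 negative. Under the exchange hspb1 had a main effect of -0.10, hspa1b of -0.58, fkbp4 of -0.11, rbmx of -0.02 and fmoda of 0.01, while cdk1 had 1.14 and c1qa 1.08.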

How the data were processed

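Whole-brain RNA labelled with Cy3 was measured on 12 arrays. The authors deposited Feature Extraction output (version 10.7.3.1 and design 019161 in the file headers, where the methods give others) with linear intensity values, background-subtracted in the processed signal and not scaled between arrays. They also deposited tables per sample and for the series. In the series table the authors deposited natural log (ln) values, for which background had been subtracted from the signal before the log was taken. With a tolerance of 0.001 all 12 tables per sample matched their own array, while 6 series columns matched arrays of the opposite dsRNA condition. The series table served only as an alternative.

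The log2 processed signal minus the array's 75th percentile over non-control features was used. Spots that the scanner software flagged as outliers were dropped, and a probe had to be well above background on 3 or more of 12 arrays. Of 43603 probes, 16568 were matched to a gene symbol by RefSeq accession (GRCz12tu table), and probes of a gene were joined by their median. Transcripts needed 2 values in each group. R 4.3.3 and limma 3.58.1 fitted 4 group means over all arrays with lmFit and eBayes, two-sided, with Benjamini-Hochberg adjustment. Precision is limited by having 3 arrays per group.

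Members and lists were chosen with earlier results of these data known. The extracellular matrix and complement lists and the rules for arrays lying apart were chosen after seeing the values. Genes were named by rule: the 10 smallest p with a symbol in each direction with the same sign in both contrasts, the 6 in each direction for the interaction, calls up to 30 per direction, the leading member of each list in each direction, and genes the study names. Further members of lists were chosen after their values were seen. In simulated data, the main effect was called for 12%, 74%, 94% and 100% of log2 changes of 1, 2, 3 and 4, with 10 unchanged transcripts called, and the interaction for 2%, 8%, 42% and 74%, with 1. Alternatives were the 50th percentile, quantile normalization, normexp on the median signal (offset 50, as the mean signal was not used here), the filter, probes singly, outlier spots, array weights, the slide block, an ordinary linear model, both other group readings, and leaving out each array. Sequences were not used here.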

Additional observations from a re-analysis of the deposited data

How the results depend on the processing

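The 62 calls of the main effect became 0 with the 50th percentile, normexp, no filter on dim probes (which tested 37281 transcripts), an exchange of the dsRNA groups or the series table, 1 with quantile normalization or by the labels, 3 in an ordinary linear model and 1064 with array weights (879 higher, 185 lower). With the slide as a replicate block they were 128 (116 higher, 12 lower), of which 59 were among the 62, and the block changed no other call count by over 1.5 times. Same-numbered arrays correlated from -0.195 to 0.556 in their deviations. Every pair numbered 1 and every pair numbered 2 was over 0.1. Among the pairs numbered 3, which include Ti3, only C with Sd was over 0.1, and Ti with Td was at -0.195. The numbers were not taken to pair the arrays, the main fit had no block, and the block stands for the slide. Leaving out 1 array gave 0 to 12. At an unadjusted p under 0.01 the 880 transcripts became 340 with the 50th percentile, 586 with quantile normalization, 578 with normexp (95.3% higher, against 80.3%), 535 without a filter (60.4% higher), 310 on transcripts well above background on all 12 arrays, 1913 with array weights, 157 by the labels (42.7% higher) and 519 to 1015 without 1 array. The all-transcript median moved from 0.10 to 0.38 with the 50th percentile, -0.41 without a filter, -0.03 under the exchange and -0.05 in the series table. For the interaction, the adjusted calls were 1101 with array weights (661 higher, 440 lower), 62 under the exchange, 1 in the series table and 0 to 4 without 1 array, and at an unadjusted p under 0.01 the 774 became 273 with normexp, 495 without a filter (31.9% higher, against 57.4%), 247 on all 12 arrays, 1972 with array weights and 416 to 1032 without 1 array. Transcripts with no overlap of gradient and constant-temperature arrays numbered 163, and 91 with the 50th percentile, 64 on all 12 arrays and 168 to 489 without 1 array. Those apart in both contrasts numbered 337, and 212, 111 and 352 to 1087 in the same order. Those with C apart numbered 833, and 164, 308 and 872 to 1869, and C below the other 9 fell from 705 to 42 with the 50th percentile. The difference in features was 366 without Ti3. Signs turned in these genes among others. Under the exchange ebi3 had 1.28, stra6l 0.95, faima 0.50, cfb 2.13, pla2g12b 0.60, dgat1b 0.30, hspb1 -0.10, stat1a 0.46, stat1b 1.32 and sst6.1 -0.47. In the series table ebi3 had 1.97, stra6l 0.77, faima 0.69, dgat1b 0.76, hspb1 -0.27, fmoda -1.15, stat1a 0.52, stat1b 2.17 and sst6.1 -0.34. With the 50th percentile stat1a had 0.0112 and sst1.1 0.16, with array weights stat1a 0.0283 and sst6.1 -0.0583, with quantile normalization irf7 -0.0762 and sst6.1 -0.0662, and with normexp irf7 -0.11 and sst6.1 -0.14. The exchange also turned pomca (-0.24), hsp90aa1.1 (-0.10), hspa1b, fkbp4, st13, rbmx (-0.02), krt4 (-0.02), hbba2 (0.41), rsad2 (1.66) and clockb (0.06), and the labels turned coro1a (-0.04), agr2 (-0.29), cirbpb (-0.43), hbaa2 (-0.30) and the 6 genes leading the positive interaction, mxa and lgals3bp.3. By the labels irf7 had -1.66, ache 0.46 and sst1.1 0.44. Without 1 array irf7 ranged from -0.23 to 0.44 and sst6.1 from -0.14 to 0.31. The causes were not tested. Low signal limits the transcripts lower in the gradient, and also higher ones with dim C arrays, such as c1qa, cfbl and cdk1.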

Other observations

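Immediate early genes, which neurons switch on within minutes of activity, had a median difference of 0.47 over 32 tested members, with 0.56 in Td minus Ti and 0.51 in Sd minus C, although only ccn1 (0.85) and jun (0.76) passed an unadjusted p under 0.01 and none was called. Their mean level was 1.38, 1.35 and 2.21 in Td and between 0.83 and 1.22 in Ti. It was between 1.15 and 1.67 in Sd and between 1.05 and 1.27 in C, which overlapped. In Sd minus C, 0 were higher and 2 lower at an unadjusted p under 0.01 (against 5.98% and 3.59% of all transcripts). The pituitary hormone precursor gene pomca had -0.89, 0.53 and 0.46 in C, 0.63, 1.72 and 2.00 in Sd, 0.08, 0.58 and 1.72 in Ti, and 3.1, 3.07 and 1.92 in Td, and Sd lay above C and Td above Ti on every array. Of its list of 25 pituitary hormone and neuropeptide genes, 23 were above 0 in Td minus Ti, with a median of 0.57, and 7 in Sd minus C, with a median of -0.37. Over all transcripts the medians of these contrasts were 0.17 and 0.07, so that most transcripts were above 0 in each contrast taken alone. The difference of pomca was 1.66 ± 0.40 (SE; limma, adjusted p = 0.102). Of 39 antioxidant and hypoxia genes 4 were higher at an unadjusted p under 0.01 (10.3%, against 4.38% of all transcripts), and the oxidative stress gene nqo1 differed by 1.21 (limma, adjusted p = 0.0591), with 0.26 in Td minus Ti and 2.16 in Sd minus C.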
